A study of Bos taurus with 179 samples.

Results

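The bovine oocytes A279, A416, B259, C101, C431, F108, F240 and H60 were deposited with raw read counts but are missing from the study's supplementary list of analysed oocytes. They were chosen by that absence together with their depth: each had more than 100000 counts and more than 2500 detected genes, a detected gene being one with more than 1 count. They were 8 of 179 deposited oocytes and 8 of the 14 that were not in the list. Each was set against the listed oocytes of the same size group and the same library replicate, called its peers below, and there were 89 peers in all.

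The study sequenced the polyadenylated RNA of single growing oocytes of cattle (Bos taurus), from ovaries of slaughtered animals, by the Smart-seq2 method in 2 library replicates. Oocytes were freed of their surrounding cells by pipetting, measured and frozen one by one, and they were placed in 8 size groups by diameter. No treatment or genotype is given for any group, and nothing in the sources used here names the animal an oocyte came from. Oocytes of 1 animal may therefore stand on both sides of a comparison, and every p-value measures only the spread between oocytes.

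Of the smallest size group, under 60 µm, were A279 (53.97 µm, replicate 1, with 3 peers of 48.0 to 56.95 µm) and A416 (48.4 µm, replicate 2, with 18 peers of 48.82 to 59.91 µm). B259 measured 61.5 µm and had 17 peers of 60 to 69.63 µm in replicate 1. C101 (70.58 µm) had 16 peers in replicate 1 and C431 (77.19 µm) had 7 peers in replicate 2, both in the group of 70 to 79 µm. F108 (102.46 µm) had 11 peers in replicate 1 and F240 (106.5 µm) had 7 in replicate 2, both in the group of 100 to 109 µm. H60 was the largest at 139.09 µm, above its 10 peers of 121.5 to 134.38 µm in replicate 1.

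A growing oocyte transcribes and stores messenger RNA for maturation and for the embryo before its own genome is switched on. The stored pool includes secreted growth factors that act on the follicle, such as BMP15, regulators of translation such as CPEB1 and BTG4, and cell cycle genes whose products are needed at meiotic resumption. Mitochondria multiply during this growth, and the enzymes of oxidative phosphorylation are encoded partly in the nucleus and partly in mitochondrial DNA. Granulosa cells, which carry the receptor for follicle stimulating hormone, enclose the oocyte and are joined to it by fine processes, so an incompletely cleaned oocyte can carry their RNA.

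Depth placed 7 of the 8 oocytes inside the range of the listed ones. Their totals ran from 113529 to 4933709 counts (median 2178037), against 277126 to 8038061 (median 1763520) in the listed oocytes. Only C101, at 113529 counts, was below the lowest listed oocyte. Detected genes ran from 5960 in B259 to 12367 in F108, against 8188 to 13545. The member nearest the count limit was C101, and the member nearest the gene limit was B259. Just outside the limits were oocyte D73, with 63163 counts and 5382 detected genes, and oocyte A429, with 143505 counts but 1104 detected genes. The other 4 excluded oocytes had between 10 and 49970 counts. These values belong to the choice of the oocytes and were not tested.

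The study also removed oocytes by their share of noncoding mitochondrial reads, which the table used here does not allow to be recomputed. As a partial stand-in, the 4 protein genes of mitochondrial DNA that could be matched (COX1, COX2, ATP6 and ATP8) held 3.15% of the counts of A279, against 0.751 to 2.01% in its peers. In A416 the share was 3.09%, against 0.721 to 2.38%, and in C431 2.18%, against 0.683 to 1.46%. In F108 it was 0.960%, against 0.250 to 0.525%, and in F240 1.74%, against 0.432 to 1.25%. These 5 oocytes were above all their peers in that share and B259, C101 and H60 were within the range. The share is given as a description because the study's own filter may have used a related measure. In the test below that pools the 8 oocytes, all 4 genes were called higher, where 10.6% of all genes were. Their median log2 fold change was 0.96, where that of all genes was -0.30. This did not hold in each oocyte: ATP8 was below the peers' median in C101 and H60, and ATP6 in H60. As the measure may have chosen the oocytes, the call is no separate evidence. The methods set the limit of that filter at 3% of reads, which the 4-gene share passed in A279 and A416. Which filter removed each of the 8 is not given oocyte by oocyte in the sources used here.

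The expression profiles of 6 of the 8 oocytes were less like their size group than that of any peer. Likeness was measured as Spearman's rho between an oocyte's log2(CPM + 1), where CPM is the count scaled to a library of 1000000, and the mean of the listed oocytes of the same size group and replicate, over 11819 genes, leaving an oocyte out of its own mean. A279 had a rho of 0.670, against 0.914 to 0.926 in its 3 peers. B259 was the least like its group at 0.656, against 0.804 to 0.967 (median 0.953) in its 17 peers. A416 reached 0.759, against 0.854 to 0.957 (median 0.924). H60 reached 0.802, against 0.894 to 0.964 (median 0.941). These 4 oocytes were separated from all their peers by a clear gap.

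The gap was narrower or absent in the other 4. F240 had a rho of 0.863, against 0.878 to 0.967 (median 0.951), and F108 had 0.911, against 0.919 to 0.966 (median 0.950). C101 reached 0.864 and its lowest peer 0.863 (median 0.965), so they overlapped. C431 reached 0.909 and fell within its peers' range of 0.887 to 0.963 (median 0.944). The points share the gene set and the group means, so rho is a description and carries no test.

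**Figure D1:**
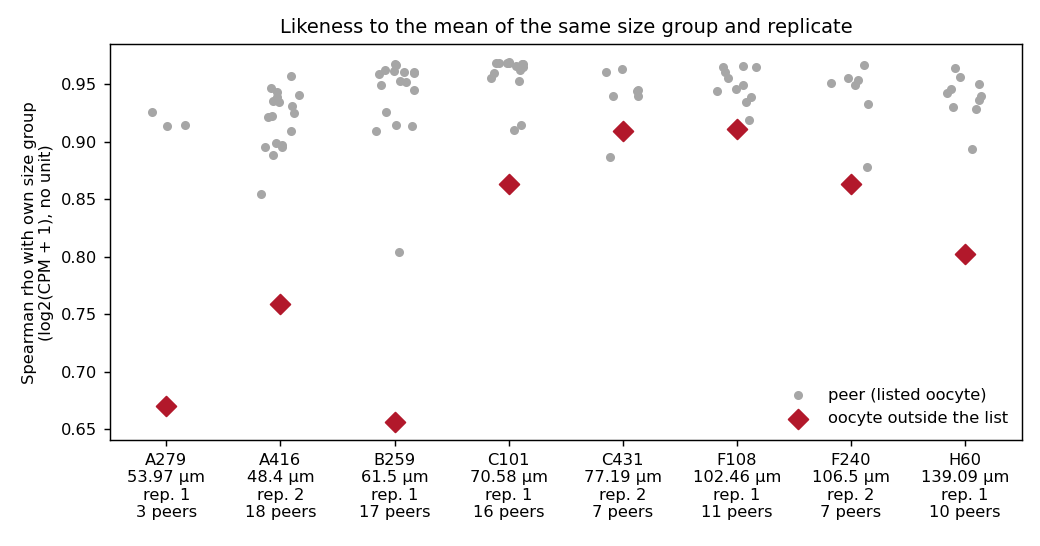
Spearman's rho between each oocyte and the mean profile of the listed oocytes of its own size group and replicate (vertical axis, no unit), for each of the 8 oocytes (diamonds) beside its peers (circles). A279 at 0.670 and B259 at 0.656 lie far below their peers, whereas C431 at 0.909 lies among them.

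The size group of the measured diameter was also the most alike one for some of the 8 and not for others. A279 and A416 were most like the group under 60 µm, which is their own. C101 was about equally like the groups of 60 to 69 µm (rho 0.864) and 70 to 79 µm (0.864), and C431 was most like 60 to 69 µm (0.929). F108 measured 102.46 µm but was most like the group of 70 to 79 µm, with a rho of 0.943, close to the 0.941 with 60 to 69 µm, and its 10 nearest listed oocytes had a median diameter of 76.1 µm (68.5 to 82.6 µm). That is 26.3 µm below its own diameter, whereas for its 11 peers the largest such gap in either direction was 15.0 µm. F240 was most like 90 to 99 µm (0.903) and H60 most like 110 to 119 µm (0.827). Such a shift was common among the peers too: their own group was the most alike for 4 of the 7 peers of F240, 5 of 10 of H60, 4 of 7 of C431, 9 of 16 of C101 and 8 of 11 of F108.

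B259 was the least clearly placed of all. Its rho was 0.682 with the group under 60 µm, 0.681 with the group of 110 to 119 µm and 0.656 with its own group, and its 10 nearest listed oocytes spanned 48.0 to 130 µm.

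**Figure D2:**
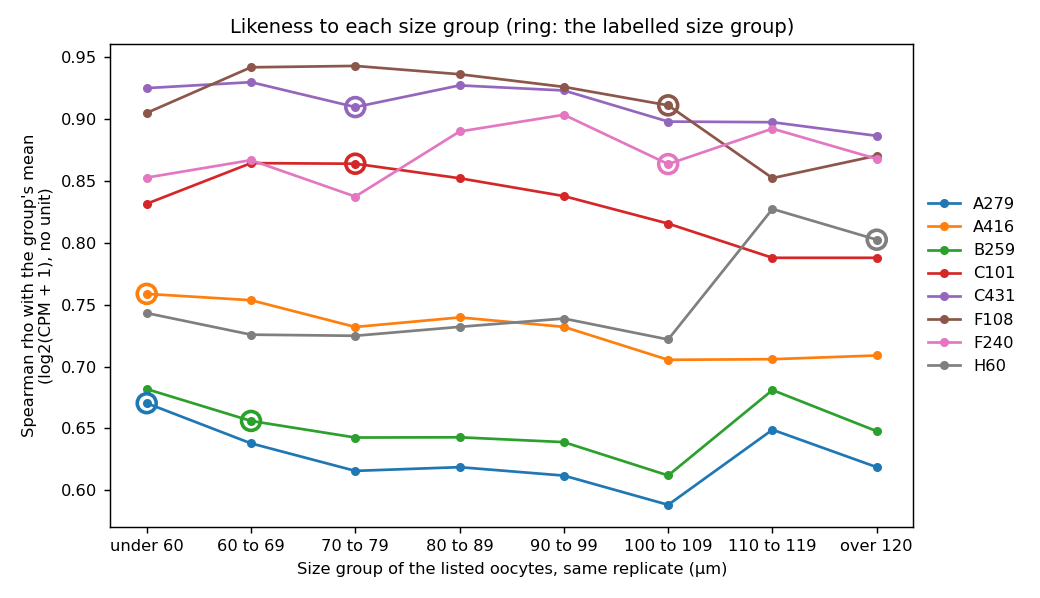
Spearman's rho (vertical axis) of each of the 8 oocytes with the mean of each of the 8 size groups of the same replicate (horizontal axis, µm), with a ring at the labelled size group. The curve of F108 has its highest value at 70 to 79 µm (0.943) and not at its own group of 100 to 109 µm (0.911).

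Abundant transcripts were missing from several of these oocytes. In B259, 883 gene IDs had no count at all although every one of its 17 peers had at least 10 counts there, and the same measure in the peers themselves, each against the rest of the group, was 0 to 201 (median 0). In A279 there were 1265 such IDs (peers 35 to 309), in A416 485 (0 to 32), in H60 196 (0 to 26) and in F240 74 (0 to 47). C101 also exceeded its peers, of which the highest had 48. C431 had 10, within the 0 to 78 of its peers, and F108 had 0. So 6 of the 8 lacked more abundant transcripts than any peer did. The library of C101 was shallow: 3 counts, the number that a count of 0 leaves possible, correspond to 26.4 CPM there but to between 0.608 and 2.77 CPM in the other 7. Reads carried no molecular identifiers, so such limits and the intervals below cover counting error only.

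The counts that remained were concentrated on fewer genes in several of these oocytes. The 100 most abundant genes took 27.4% of the counts in A279 (peers 18.4 to 22.9%), 25.0% in A416 (15.7 to 22.3%), 31.8% in B259 (18.5 to 26.3%), 26.8% in F240 (17.3 to 21.7%) and 33.1% in H60 (21.0 to 31.4%). Many single genes lay outside the range of the peers in all 8, but single peers set against the rest of their group left it too. The share of genes tested below every peer was 52.2% in A279, 22.8% in A416, 35% in B259, 22.6% in C101, 17.4% in C431, 7.68% in F108, 36.6% in F240 and 33.6% in H60. The share above every peer was 21.5%, 9.87%, 13%, 10.1%, 12.9%, 19.3%, 10.5% and 11.5% in the same order. The share below exceeded that of each single peer in A279 (at most 41.4%), A416 (8.95%), B259 (19.5%), F240 (28.6%) and H60 (22.7%). It did not in C101 (peers up to 32.6%), C431 (24.3%) and F108 (15.4%). The share above exceeded that of each single peer only in F108 (at most 15.7%), and in A279 it was under the 25.4 to 46.9% of its peers. With 3 peers in one group and 18 in another, these shares cannot be compared between the oocytes. They are the background for any single gene named as above or below every peer.

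At an equal 100000 counts per oocyte, A279 kept 4990 detected genes (peers at least 6127), A416 4624 (at least 5431), B259 4318 (at least 6014), F240 4870 (at least 5849) and H60 4811 (at least 5782), all below every peer. C431 kept 6236 and F108 7083, inside their peers' ranges of 6223 to 6919 and 6401 to 7146. C101 kept 5890 detected genes, inside the 5259 to 6803 to 7066 (lowest, median and highest) of its peers.

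Expression of each gene was then compared by edgeR's quasi-likelihood test on the raw counts, with size group and replicate as a block, Benjamini-Hochberg adjustment over all 11819 genes tested and a threshold of 0.05 on the adjusted p. With 1 term for all 8 oocytes, 3711 genes differed from the peers, 31.4% of those tested, of which 1253 (10.6%) were higher and 2458 (20.8%) lower. In that fit the median log2 fold change of all genes was -0.30. The term is an average over 8 single oocytes that have in common only how they were chosen, and its calls are named shared below. A shared call need not hold in each oocyte: singly, A279, A416, B259 and H60 had 3193 to 5139 calls, F108 36, and C101 and C431 0. Of the higher genes, 245 lay above the peers' median in at least 7 of the 8 oocytes, and 36 in all 8. Of the lower genes, 1788 lay below it in at least 7 and 664 in all 8. The side of the median is read on CPM, and the whole distribution of genes lay lower in most of the 8: tested singly, the median log2 fold change of all genes was -3.91 in B259, -2.57 in A416, -1.06 in H60, -1.06 in C101, -0.996 in A279, -0.70 in F240, -0.23 in C431 and -0.02 in F108.

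Taken singly, the oocytes ranged from very many calls to none. Each was tested with its own term in the same model, so that a lone oocyte is assumed to vary as the peers do. B259 had 1119 genes higher (9.47%) and 4020 lower (34%), A416 had 855 higher (7.23%) and 3808 lower (32.2%), and A279 had 1231 higher (10.4%) and 3029 lower (25.6%). H60 had 791 higher (6.69%) and 2402 lower (20.3%), and F240 had 1101 calls, of which 782 were lower (6.62%) and the rest higher (2.7%). F108 had 32 higher (0.271%) and 4 lower (0.0338%). In each of the first 5 named, the lower genes were more numerous, and in F108 the higher ones, but there DESeq2 called 6 higher and 33 lower. With all listed oocytes in the fit, F240 had 806 calls, 54% of them higher.

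C101 and C431 had 0 genes past the threshold (0.0%). At an unadjusted p below 0.05 there were 887 genes in C101 (7.5%) and 1130 in C431 (9.56%), and their smallest adjusted p were 0.0737 and 0.0717. DESeq2 called 0 genes in C101 and 60 in C431, all lower. A count of 0 here does not show that these profiles equal those of the peers.

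**Figure D3:**
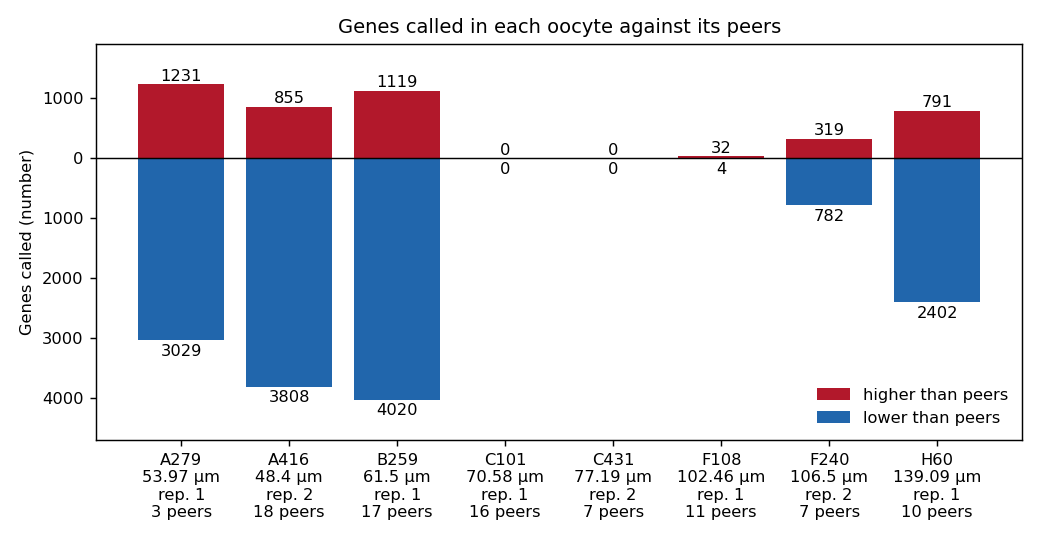
Number of genes (vertical axis) higher (upward) and lower (downward) than the peers at an adjusted p below 0.05, for each of the 8 oocytes tested singly. B259 shows the most calls (1119 higher and 4020 lower), C101 and C431 show none.

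Calls were counted over the oocytes tested singly. Higher expression was called in at least 2 of them for 961 genes, in at least 4 for 69 and in 5 for 4 genes. Lower expression was called in at least 2 for 4352 genes, in at least 4 for 561 and in 5 for 63. None was called in 6. Only 6 oocytes had any calls, so 6 was the most possible. Of the 15 pairs of these 6 oocytes, A279 and B259 shared the most higher genes, 392, which were 31.8% of the higher calls of A279 and 35% of those of B259, where 10.4% and 9.47% of all genes were higher. A416 and B259 shared the most lower genes, 2080, which were 54.6% and 51.7% of their lower calls, where 32.2% and 34% of all genes were lower. The peer groups within each pair were separate.

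Among the 788 shared calls whose gene could be named, 251 were higher and 537 lower. Symbols were known for 2436 of the genes tested, most of them starting with A, B or C, so the named genes are a sample of the alphabet and not of function. The 10 higher genes with the smallest adjusted p, above the peers' median in at least 7 oocytes, are given in what follows. CWC15, a spliceosome-associated protein, stood at 503 CPM in A279, 762 in A416, 1573 in B259, 211 in C101, 332 in C431, 282.5 in F108, 643 in F240 and 1667 in H60. The medians of the respective peers were 303, 308, 263.8, 275.7, 289.2, 269, 281.6 and 358.01 CPM. A279, A416, B259, F240 and H60 were above every peer, C101 was below the median, and C431 and F108 were close to it. The log2 difference was 1.505 ± 0.20 (SE, adjusted p = 1.6e-08).

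ATP5MF, the f subunit of the mitochondrial ATP synthase, was higher as well. It stood at 343.4 CPM in A279, 603 in A416 and 839 in B259, each above every peer, where the peers' medians were 76.7, 139 and 60.2. In C101 it was 44.0 CPM (peers' median 44.3), in C431 240 (93.1), in F108 68.3 (57.3), in F240 108 (73.4) and in H60 144.1 (62.1), all within the peers' ranges. The log2 difference was 2.06 ± 0.29 (SE, adjusted p = 5.06e-08). CMC1, which takes part in the assembly of cytochrome c oxidase, was above every peer in A279, A416, B259, F240 and H60, at 492, 794, 847, 447.6 and 969 CPM, with a log2 difference of 1.74 ± 0.32 (SE).

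The remaining 7 rose by 1.11 to 1.99 on the log2 scale. BRIX1, a factor of ribosome biogenesis, was 1911 CPM in B259 and 1566 in H60 where the peers' medians were 263.8 and 376.8, and 106 in C101 where the median was 231 (log2 difference 1.36 ± 0.24, SE). CFAP300, needed for ciliary dynein assembly, rose by 1.82, CRIPT, a protein that binds PDZ domains, by 1.71 and the reading frame C2H2orf76 by 1.99. C24H18orf21 rose by 1.25, COMMD3 of the COMMD family by 1.17, and ATP6V1G1, a subunit of the proton pump of lysosomes, by 1.11. C101 was below the peers' median for 8 of the 10 genes and F108 for the other 2, C24H18orf21 and CMC1.

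The 10 lower genes with the smallest adjusted p were chosen in the same way, among those below the peers' median in at least 7 oocytes. ANKS1A, an adaptor of receptor tyrosine kinases, had no count in 7 of the 8 and 3.28 CPM in F108, where the peers' medians ran from 2.74 to 17.4 CPM. It was below every peer in all but A416, and the level was low in the peers too. CDX1, a caudal-type homeobox factor, stood at 6.89 CPM in A279, 12.1 in A416, 29.5 in B259, 281.9 in C101, 58.8 in C431, 466 in F108, 30.1 in F240 and 61.4 in H60, against peers' medians of 202.8, 102, 269, 404, 232.95, 634, 271.7 and 687. C101 and F108 were the highest of the 8 and stayed inside their peers' ranges, and the other 6 were below every peer. The log2 difference was -1.95 ± 0.32 (SE, adjusted p = 3.05e-06).

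CPEB1, the protein that recruits cytoplasmic polyadenylation to stored messages in the oocyte, was another of these 10 genes. Its levels were 111 CPM in A279, 420 in A416, 290 in B259, 1436 in C101, 493 in C431, 2556 in F108, 337 in F240 and 313 in H60. The peers' medians ran from 1126 to 2146 CPM. All but F108 were below every peer, and F108 was above its peers' median of 2070 (log2 difference -1.29 ± 0.22, SE, adjusted p = 4.38e-06). Only F108 thus departed from the common direction.

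The other 7 lower genes have different roles. BRD9, a bromodomain subunit of a chromatin remodelling complex, fell by 1.96 on the log2 scale, and BANP, a chromatin-associated protein, fell by 1.92. BANP stood at 0.922 CPM in B259 against a peers' median of 237.2, and at 277.6 in F108 against 335. ARHGAP22, a GTPase-activating protein, fell by 2.45, CSK, the kinase that restrains the SRC family, fell by 3.29, and the adiponectin receptor ADIPOR1 fell by 1.98. ABHD4, a lipid hydrolase, fell by 2.66 and had no count in A279 and B259, whose peers' medians were 84.5 and 133 CPM. CENPT, a kinetochore protein, fell by 2.37 and had no count in A416 and F240.

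**Figure D4:**
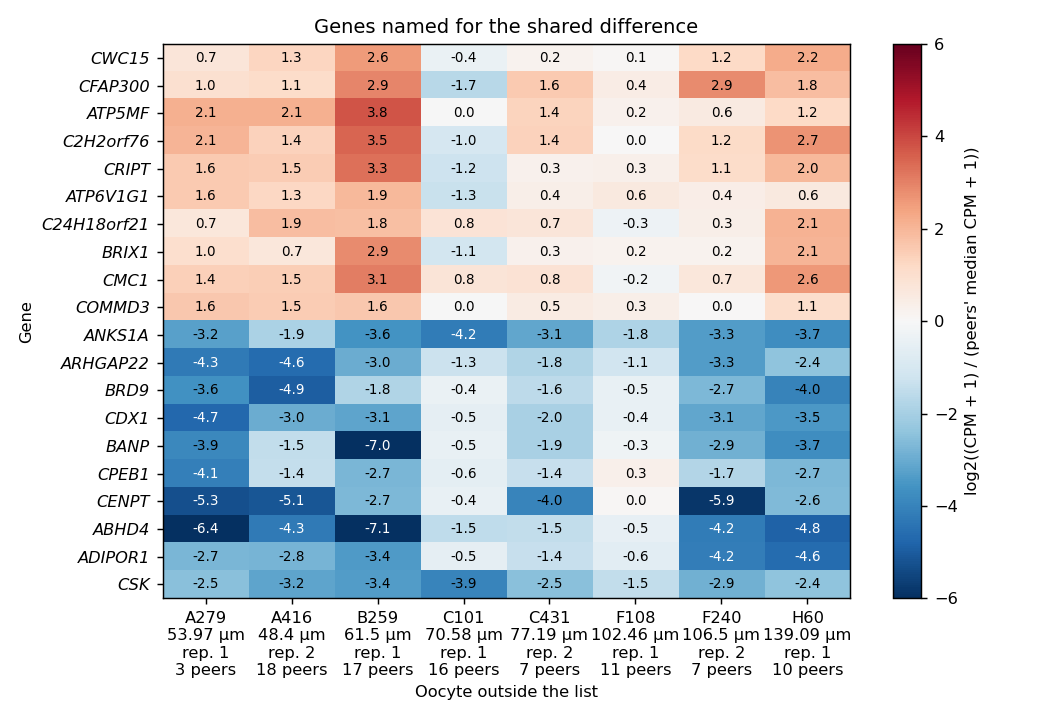
Log2 ratio of each oocyte's CPM to its peers' median CPM, 1 CPM added to both, for the 10 higher and 10 lower named genes (rows of the picture) in the 8 oocytes (columns). C101 and F108 have the weakest deviations for most lower genes, for example -0.52 and -0.44 for CDX1 against -4.69 in A279.

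Of the genes with no known symbol, the most abundant among the higher calls were ENSBTAG00000001842 (log2 difference 1.13) and ENSBTAG00000043559 (0.72). ENSBTAG00000001842 reached 15081 CPM in H60 and 8941 in B259 where the peers' medians were 4235 and 1844. The most abundant lower calls were ENSBTAG00000014834, which fell by 1.28, and ENSBTAG00000011504, which fell by 0.975. ENSBTAG00000014834 was below every peer in 6 oocytes but stood at 14437 CPM in B259, above the peers' median of 10953. ENSBTAG00000011504 was above every peer in C101, at 14912 CPM.

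Most nuclear-encoded subunits of ATP synthase and cytochrome c oxidase rose. Of 25 subunits tested, 18 were higher and 0 lower, with a median log2 fold change of 0.99 where that of all genes was -0.30 and 10.6% of all genes were higher. Of the 7 that did not pass, ATP5F1A (-0.48), ATP5F1B (-0.33), ATP5F1D (-0.54) and COX8A (-0.20) lay on the lower side. The median log2 fold change of the subunits was 2.20 in A279, 1.75 in B259, 1.18 in H60, 0.88 in A416, 0.13 in F108, -0.03 in F240, -0.07 in C431 and -1.17 in C101. In A279 20 subunits were higher and 0 lower, in B259 17 and 1, in A416 8 and 1, and in H60 7 and 2, where 10.4%, 9.47%, 7.23% and 6.69% of all genes were higher and 25.6%, 34%, 32.2% and 20.3% lower. In F240 1 was higher and 2 were lower, near its shares of 2.7% and 6.62% over all genes, and no subunit passed the test in C101, C431 or F108.

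The summed level of these subunits was above every peer in 5 oocytes. It was 24151 CPM in A279 (3 peers 6790 to 7329), 18628 in B259 (3380 to 10178, median 6229), 15820 in A416 (5244 to 10550, median 7060) and 10699 in H60 (4176 to 9743, median 5529). F108 was just above its peers, at 6585 CPM (4544 to 6461). C101 (3726, peers 3392 to 6492), C431 (8317, peers 4596 to 8642) and F240 (5704, peers 4628 to 9110) were inside the range. Among single subunits, COX6C of cytochrome c oxidase was 6817 CPM in A279, 4543 in A416 and 1840 in B259, where the peers' medians were 604, 1049 and 596, and 167 CPM in C101, where the median was 223.6 (log2 difference 1.63 ± 0.32, SE, adjusted p = 5.73e-05). ATP5F1E, the epsilon subunit of ATP synthase, was 1629 CPM in A279 and 26.4 in C101, against 345.1 and 86.2 (1.53 ± 0.34, SE, adjusted p = 0.000336). With any 1 of the 8 oocytes left out, 17 to 19 subunits were higher and 0 lower, except without A279, where 17 were higher and 2 lower. The call of ATP5MC1, the c subunit, ended without A279, B259 or H60 (largest adjusted p = 0.147).

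**Figure D5:**
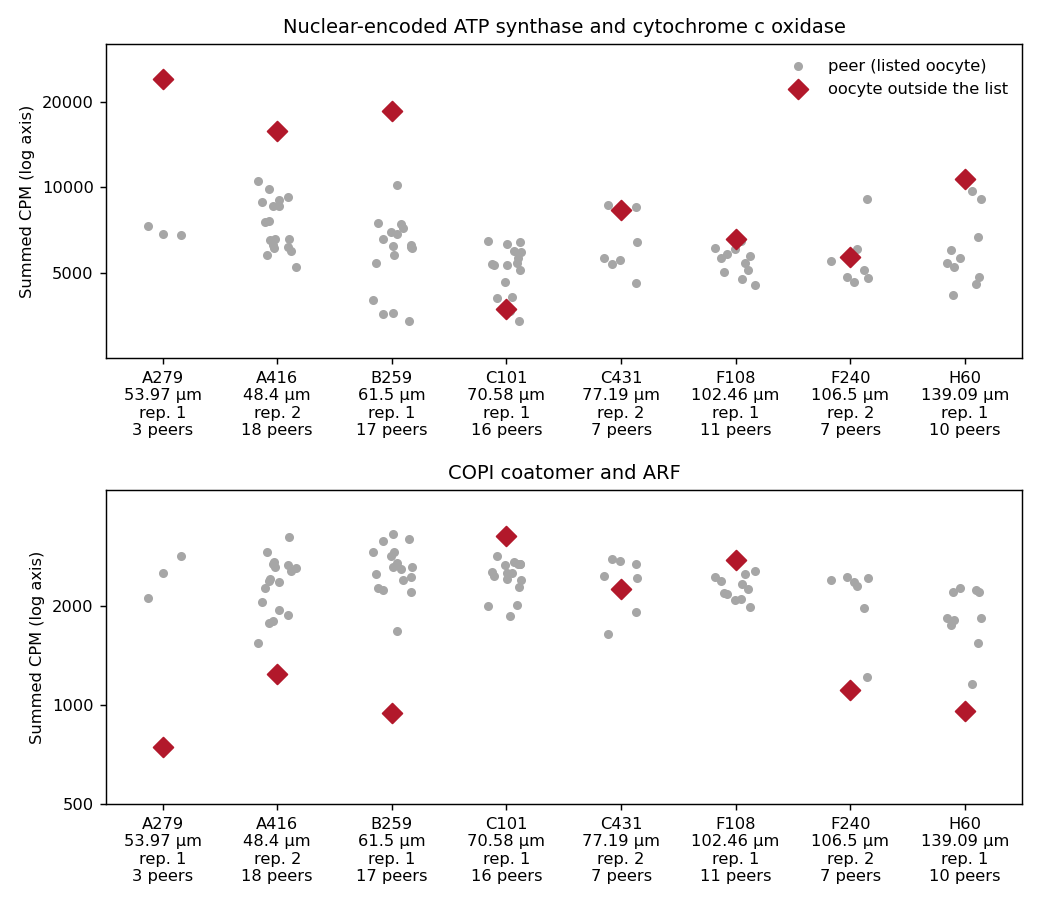
Summed CPM (vertical axis, log scale) of the nuclear-encoded ATP synthase and cytochrome c oxidase subunits and of the COPI coatomer and ARF genes in each of the 8 oocytes (diamonds) and its peers (circles). The subunits of A279 sum to 24151 CPM against at most 7329 in its peers, and its coatomer genes to 748.5 against at least 2111.

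The coatomer of COPI vesicles, which carry cargo within the Golgi and back to the endoplasmic reticulum, and the ARF GTPases that recruit it were tested as 1 list. Of 12 genes tested, 7 were lower and 1 higher (20.8% and 10.6% of all genes), with a median log2 fold change of -0.95. ARF5 stood at 31.2 CPM in A279, 0 in A416 and B259, 61.7 in C101, 31.3 in C431, 119 in F108, 2.04 in F240 and 17.2 in H60, against peers' medians of 41.7 to 158. Only C101 and F108 were within their peers' ranges (log2 difference -1.89 ± 0.37, SE, adjusted p = 5.01e-05). All 5 ARF genes tested were lower, ARF1, ARF3, ARF4 and ARF6 being the others. Of the 7 coatomer subunits, COPG1 and COPZ1 were lower, COPZ2, the second zeta subunit, was higher (log2 difference 1.54 ± 0.30, SE), and ARCN1 (-0.41), COPB1 (0.07), COPB2 (-0.05) and COPG2 (-0.55) did not pass the test. COPZ2 was low throughout, at 0 to 49.8 CPM. The summed level was below every peer in A279, A416, B259, F240 and H60, and stood above every peer in C101 (3277 CPM, peers 1862 to 2841) and F108 (2753, peers 1995 to 2564).

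Of 28 genes characteristic of oocytes only 8 could be matched to an ID, because of the missing symbols. Of the 8, 4 were lower and 1 was higher, with a median of -0.58, where 20.8% of all genes were lower and 10.6% higher, with a median of -0.30. BMP15, the growth factor that the oocyte secretes to its follicle, was 41.8 CPM in A279, 234.4 in A416, 10.1 in B259, 1762 in C101, 626 in C431, 721 in F108, 494 in F240 and 192 in H60, against peers' medians of 526, 744, 876, 1248, 906, 2004, 1868 and 1400. A279, A416, B259, F240 and H60 were below every peer, and C101 was above its median (log2 difference -1.42 ± 0.31, SE, adjusted p = 0.000309). BMP6, CPEB1 and the actin-like ACTL8 were the other lower ones. BTG4, which links maternal messages to the deadenylase, was higher, by 0.58 ± 0.23 (SE, adjusted p = 0.0481), with 14120 CPM in H60 (peers' median 5075) and 7811 in B259 (2354), but it was below every peer in A279, at 979 CPM (median 1762). Its call ended without B259 or without H60 (largest adjusted p = 0.514). BTG4 was at least 979 CPM and CPEB1 at least 111 CPM in all 8, whereas BMP6 had no count in 7 oocytes and ACTL8 none in 6, both being low in the peers as well.

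Among 19 genes of the meiotic M phase and spindle, 6 were lower and 3 higher, with a median of -0.41, where 20.8% of all genes were lower and 10.6% higher, with a median of -0.30. The lower ones were the kinases AURKA and AURKB, cyclin B2 (CCNB2), the phosphatase CDC25A, the spindle checkpoint kinase BUB1B and CDC20, which activates the anaphase promoting complex. CDC20 was 39.3 CPM in A279, 86.4 in A416, 1.84 in B259, 167 in C101, 45.9 in C431, 265.6 in F108, 5.62 in F240 and 68.8 in H60, and all but A416 were below every peer (log2 difference -1.50 ± 0.36, SE, adjusted p = 0.00077). The higher ones were CENPC and CENPE of the kinetochore and ARPP19, an inhibitor of the phosphatase that opposes mitotic entry. ARPP19 rose by 1.09 ± 0.21 (SE) and was above every peer in B259, C431, F108, F240 and H60 and below every peer in C101. The directions within the list were therefore mixed. The call of AURKB ended without A416, B259, C101, C431 or F240 (largest adjusted p = 0.216), that of BUB1B without A279, A416 or B259 (0.264) and that of CENPE without B259, F240 or H60 (0.232).

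Other gene groups had few calls or calls in both directions, beside 20.8% lower and 10.6% higher of all genes (median -0.30). Of 12 subunits of the anaphase promoting complex 2 were lower (ANAPC2 and CDC23) and 2 higher (CDC26 and ANAPC13), both higher ones being small subunits, with a median of -0.43. Of 12 genes of the CCR4-NOT deadenylase and its partners, CNOT11 was lower and BTG1 and BTG4 were higher (median -0.04). Of 7 subunits of the CCT chaperonin, CCT2 was higher and none lower (median -0.25). Of 16 genes of actin and the Arp2/3 complex, ARPC3 was higher and ARPC1B, CFL1 and CAPZB were lower (median -0.14). Without H60 the calls of CDC26, ANAPC13, CDC23, CCT2 and ARPC1B ended, with largest adjusted p of 0.0728, 0.0724, 0.193, 0.104 and 0.0979. The same held for ANAPC13 without A279, for CCT2 without C101, for ARPC1B without B259 or F240, and for CDC23 without A279, A416, B259, C431 or F240.

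Lysosome and autophagy genes included 13 lower and 4 higher of 36, and their median of -0.33 was close to the -0.30 of all genes, of which 20.8% were lower and 10.6% higher. CTSC, a lysosomal dipeptidyl peptidase, fell by 2.27 on the log2 scale, and stood at 0 to 0.811 CPM in A279, A416 and B259. ARSA, ASAH1, CTSD, CTSB and CTSZ, hydrolases of the lysosome, and the proton pump accessory ATP6AP1 were also lower, and so were 6 genes of autophagy, ATG2A, ATG3, ATG7, ATG9A, ATG13 and ATG16L1. ATG2B, CTSL and the proton pump subunits ATP6V1D and ATP6V1G1 were higher, with CTSL detected in C431 and F108 only. The calls of ATG3, ATG7, ATG9A, ATG13, ATG16L1, ARSA, ASAH1 and CTSL each ended without at least 1 oocyte (largest adjusted p from 0.0785 for ATG9A to 0.425 for CTSL without C431 or F108), and each of the 8 oocytes ended at least 1 of them.

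Genes of apoptosis and of the integrated stress response are read against 10.6% of all genes higher and 20.8% lower, with a median of -0.30. Of 19 apoptosis genes, 0 were higher and 3 lower, namely CASP2, AIFM1 and BIRC5 (median -0.60), a share of lower genes below that of all genes. Without A279, 1 of 20 was higher. The initiator caspase CASP2 stood at 0 to 8.81 CPM in 7 oocytes, against peers' medians of 19.5 to 38.1, and at 32.2 in F108, against 35.4 (log2 difference -1.96 ± 0.35, SE, adjusted p = 1.21e-05). Of 7 stress response genes, 0 were higher and CHAC1, ASNS and CARS1 were lower (median -1.04). CHAC1, a glutathione-degrading enzyme induced in that response, was at or near its peers' median in C101 (70.5 against 64.2 CPM) and A279 (9.53 against 10.5) and below it in the other 6. The call of ASNS ended without B259 or F108 (largest adjusted p = 0.0755), that of AIFM1 without B259 (0.0534), and that of BIRC5 without A279, A416, C431 or F240 (0.204).

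Markers of other ovarian cells were highest in different oocytes, depending on the cell type, and their counts stand beside 10.6% higher and 20.8% lower of all genes (median -0.30). Of 4 granulosa markers tested 3 were higher, FSHR, HSD17B1 and GATM (median 1.93), of 5 theca, stroma and smooth muscle markers 0 passed the test (median -1.20), the only endothelial marker tested, ACVRL1, was lower, and of 5 immune and blood markers CD74 was higher and CSF1R lower. The receptor FSHR was 93.8 CPM in A279 and 14.2 in C431 and had no count in the other 6. GATM, an enzyme of creatine synthesis, was 136 CPM in A279, 20.2 in F108 and 12.8 in F240 and had no count in the other 5. HSD17B1, an enzyme of oestradiol synthesis, was 63.9 CPM in A416, 32.4 in A279, 14.8 in B259 and 9.84 in F108 and had no count in the other 4. The summed granulosa level was above every peer in A279 and in C431 (2291 CPM, peers 192.4 to 1609), where CITED2, a transcriptional regulator that the listed oocytes also carry, made up 2277 CPM. These shared calls rested on few oocytes: that of FSHR ended without A279 or H60 (largest adjusted p = 0.511) and FSHR left the test without C431, that of GATM without A279, F108 or F240 (0.324) and that of HSD17B1 without A416 (0.124). CD74, counted in F108 alone of the 8, was not tested without F108, so it passed the filter on low counts only through the oocyte where it is high. FSHR likewise passed it only with C431, an oocyte in which it was counted. Neither call is therefore support for its list, and the median of 1.93 includes FSHR. The call of ACVRL1 ended without A279, A416, C431, F240 or H60 (0.106). Theca, stroma and smooth muscle markers summed to at most 80.87 CPM in the 7 oocytes other than A279, below every peer in A416, B259, C101 and H60. Endothelial markers summed to 0 to 21.08 CPM in all 8. Immune and blood markers summed to 0 to 251.9 CPM, the last in F108 and above its peers (113.1 to 237.4). They were within the range in C101 and below every peer in the other 6. The granulosa sum of H60 was below every peer (9.553 CPM, peers 19.35 to 120.7).

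The higher genes named in A279 were almost without counts in its peers. GSTA1, a glutathione S-transferase of the alpha family, had 17738 counts in A279, 3595 CPM, and 2 counts over its 3 peers together, a ratio of 24183 (95% counting interval 6694 to 199702). FATE1, a protein of contacts between mitochondria and endoplasmic reticulum, had 1194 CPM against at most 0.472 in the peers, a ratio of 8030 (2222 to 66322). SRGN, the core protein of a granule proteoglycan, had 366 CPM and no count in the peers, at least 1641-fold higher, with the floor of 3 counts taken over the 3 peers together. The counting of near-identical copies is not described, so GSTA1 may include reads of its paralogs.

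A279 also lacked genes that its peers expressed well. ARHGAP5, another GTPase-activating protein, BRCA1, a DNA repair protein, and BAZ1A, a subunit of chromatin remodelling complexes, had no count, where the peers had 133, 163 and 276.9 CPM of ARHGAP5, 140, 176 and 211 of BRCA1, and 124, 139 and 185 of BAZ1A. All 3 were at least 228.3-fold lower. Its 8 oocyte genes summed to 1186 CPM, against 4015 to 6214 in the peers, and its M phase and spindle genes to 4107, against 10219 to 12328, with 9 of the 19 lower and 0 higher, where 25.6% of all genes were lower and 10.4% higher in A279.

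Markers of follicular cells stood out in A279 as well. Its granulosa markers summed to 338.5 CPM, against 30.55 to 78.62 in the 3 peers, and its theca, stroma and smooth muscle markers to 458.7, of which DCN made up 360, against 3.987 to 40.13. FSHR had 463 counts against 1 over the peers, a ratio of 1262 (95% counting interval 225.5 to 49971). DCN, the proteoglycan decorin of connective tissue, had 1775 counts and none in the peers, at least 1613-fold higher, and CYP11A1, the enzyme that starts steroid synthesis, had 201 and none, at least 183-fold higher. ACTA2, the smooth muscle actin, was 50.7 CPM, against at most 10.9. Of the 12 granulosa markers matched, AMHR2, AREG, BTC and DHH had no count in A279, and of the 18 stroma markers CYP17A1, COL1A1, COL1A2, COL3A1 and 7 more had none. Endothelial markers summed to 21.08 CPM, above the 3.827 to 15.82 CPM of the peers, with CDH5 and CD34 at 0 and CLDN5 at 20.1 CPM. The leukocyte markers CD14, CD68, CD74 and CD4 had no count.

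The filter on low counts kept some of these genes, such as DCN, out of the test. In A279, 414 untested gene IDs lay above every peer with at least 20 counts, and all untested IDs together held 1.6% of its counts, against at most 0.217% in a peer. A416 had 57 such IDs, H60 67, F108 18, B259 16, C431 13, F240 6 and C101 0. Those with the most counts in A279 and a symbol were BEX2, under 2 IDs with 2083 and 763 counts, DCN, CD99, ECRG4 and ARMCX2. They were singled out after their values were seen, and the near-identical BEX genes may share reads. The part that cells other than the oocyte played in the differences of A279 was not tested.

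A416 was set apart mainly by loss. CEPT1, which makes the phospholipids phosphatidylcholine and phosphatidylethanolamine, had no count, against 189, 292 and 366 CPM (lowest, median and highest of 18 peers), and neither had APPBP2, a protein that binds the amyloid precursor, nor the reading frame C1H21orf91. All 3 were at least 128.1-fold lower. On the higher side, FGL1, a secreted fibrinogen-like protein, had 28 counts where no peer had any, at least 164.7-fold more. SLC18B1, a vesicular polyamine transporter, was 104 CPM against at most 12.99, and MEFV, the innate immune sensor pyrin, 22.9 against at most 6.17. Their log2 differences were 5.68 ± 1.06 and 5.22 ± 0.87 (SE).

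B259 had the largest number of lower calls. CTSZ, a lysosomal cathepsin, had no count, against a median of 302 and a highest value of 464.4 CPM in the 17 peers, and was at least 109-fold lower. The adiponectin receptor ADIPOR2 was at least 77.5-fold lower. Among the higher genes the reading frame C6orf52 reached 1543 CPM, against 8.26, 48.7 and 124 in the peers (log2 difference 5.11 ± 0.55, SE, adjusted p = 1.46e-11). FGFBP1, which releases fibroblast growth factors from the matrix, was 63.6 CPM against at most 7.73, and GC, the vitamin D-binding protein, had 20 counts, 18.4 CPM, against at most 4.13. The medians of C6orf52 by size group in replicate 1 ran from 48.7 to 219.3 CPM, all below the level in B259.

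Of the 8 oocyte genes, H60, the largest oocyte, was above every peer in 1 and below every peer in 4, where 11.5% of all genes were above and 33.6% below. The former was BTG4, at 14120 CPM, and the latter were BMP15, BMP6, ACTL8 and CPEB1. GSTA1 had 34 counts, 9.28 CPM, against at most 1.15, a ratio of 113 (95% counting interval 28.9 to 969). MEI4, needed to start meiotic recombination, was 13.1 CPM against at most 1.74, and ENKUR, a protein of motile cilia, 24.02 against at most 5.66. The adjusted p of MEI4 was 0.00124 and that of ENKUR 0.00981, but 0.0637 with DESeq2. Among the lower genes, C18H19orf33, CASTOR1, an arginine sensor of the growth kinase mTORC1, and COPZ1, a coatomer subunit, had no count and were at least 116-fold, 86.5-fold and 83.3-fold lower.

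F240 had fewer calls. The reading frame C8H9orf85 was 792 CPM against 48.0, 127 and 333 in 7 peers (log2 difference 3.06 ± 0.69, SE, adjusted p = 0.00377). GATM, at 25 counts, and SLC22A15, an organic ion transporter at 21 counts, were 12.8 and 10.7 CPM against at most 4.59 and 2.69. The call of GATM was lost with DESeq2 (adjusted p = 0.0551) and that of SLC22A15 without the filter on low counts (0.0502). CKB, the creatine kinase of brain and other tissues, ATP11A, a phospholipid flippase, and CHMP1A, an ESCRT protein of membrane scission, had no count and were at least 40.8-fold, 35.5-fold and 39.7-fold lower. Of the genes tested, 36.6% were below every one of the 7 peers of F240, where a single peer set against the rest of the group reached at most 28.6%, and 12 of the 25 ATP synthase and cytochrome c oxidase subunits were among them.

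In F108 edgeR called 32 genes higher and 4 lower, whereas DESeq2 called 6 higher and 33 lower, so the direction of its calls depends on the test. Most of the higher genes were higher in smaller listed oocytes too. Of its 32 higher genes, 30 had a higher median in the listed oocytes of replicate 1 of 70 to 79 µm than in those of 90 to 99 µm (93.8%) and 0 had a lower one, where 58.2% of all genes tested had a higher one. Of its 4 lower genes 3 had a lower median there and 1 a higher one. The group of 100 to 109 µm, to which F108 belongs by diameter, was not used here, but the comparison is not independent of the calls. The low-count filter ran over strata that included the small size groups. Genes near 0 in the peers of F108, as many of these were, could enter the test through those groups. The share over all genes is therefore not a like background, and the values are a description only.

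CBLN4, a secreted protein of the cerebellin family, shows the pattern. It stood at 94.0 CPM in F108, against 0 to 4.56 in its 11 peers, and its median by size group, over the listed oocytes of replicate 1 only, was 79.7 CPM under 60 µm (3 oocytes), 24.5 at 60 to 69 µm, 9.98 at 70 to 79 µm and 0 at 100 to 109 µm (log2 difference 5.54 ± 0.86, SE, adjusted p = 5.34e-05). BOLA-DMB, of the class II major histocompatibility complex, was 30.1 CPM against at most 2.29, with a median of 17.99 under 60 µm in replicate 1. CD74, the invariant chain that escorts those class II molecules, had 94 counts, 51.4 CPM, and none in the peers, at least 254-fold more. Its median in replicate 1 was 1.70 CPM under 60 µm, over 3 oocytes, and 0 in every other size group, and in the 18 listed oocytes under 60 µm of replicate 2 it was 0. Reads of related class II genes may be shared.

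The 4 lower genes of F108 had no symbol and are named here after their values were seen. ENSBTAG00000055311 had 1 count, 0.546 CPM, against 2.27, 231 and 354 CPM in the peers, and ENSBTAG00000019009 had 38.2 CPM against 414, 511 and 1101. ENSBTAG00000000401 and ENSBTAG00000048053 were at 27.9 and 258.99 CPM, against at least 138 and 696. F108 was below every peer for all 4.

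C101 and C431 had no calls of their own, and their values are given for the genes named above. Of the 10 lower genes, C101 was within its peers' range in 6 and below every peer for CPEB1, CENPT, ANKS1A and CSK. Over all genes tested, 22.6% were below every peer of C101, and a single peer reached 32.6%. For ANKS1A and CSK, with no count in C101, the peers' medians of 17.4 and 14.3 CPM were under the 26.4 CPM that its depth can show. C431 was below every peer for all 10 of the lower genes and above every peer for CFAP300 among the higher ones. Of all genes tested, 17.4% were below every one of the 7 peers of C431 and 12.9% above, and single peers set against the rest of the group reached 24.3% and 18.4%. These 10 genes were chosen with C101 and C431 among the 8 oocytes, so the direction of either in them is no separate evidence. Over all genes, neither oocyte had more values outside the range than a peer can have.

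The replicates were sequenced with reads of 150 and 75 bases, so the comparison was also made within each. In replicate 1, with A279, B259, C101, F108 and H60, 1087 genes were higher (9.2%) and 1631 lower (13.8%), and in replicate 2, with A416, C431 and F240, 568 were higher (4.81%) and 1522 lower (12.9%). The difference from the peers itself differed between the replicates at 678 genes (5.74%). CENPT was the only one of the 20 named genes among them, with a log2 difference of -1.65 in replicate 1 and -5.38 in replicate 2 (adjusted p of the difference 0.00431). Replicate, size and oocyte vary together here and cannot be told apart. Of the ATP synthase and cytochrome c oxidase subunits, 19 were higher and 0 lower in replicate 1 and 4 were higher and 1 lower in replicate 2. Of the coatomer and ARF genes, 1 was higher and 3 were lower in replicate 1, and 0 were higher and 6 lower in replicate 2.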

How the data were processed

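Single bovine oocytes were sequenced as oligo-dT primed Smart-seq2 libraries, and the authors deposited 1 table of raw counts per gene and oocyte. Per the labels and the study's methods, reads were trimmed with Trim Galore 0.6.6, aligned with HISAT2 to ARS-UCD1.2 and counted in SeqMonk, and the counting of strand, overlaps and multiple matches is not described. Of 23161 lines, 3622 shared a gene ID with another and were summed, which left 21218 IDs. Symbols came from the ID and symbol pairs in the study's supplementary tables (3608 IDs, 2898 of them starting with A, B or C), since the RefSeq table at hand holds no Ensembl IDs.

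Oocytes were grouped by the size and replicate in their labels. CPM were computed on the total count of an oocyte, from 113529 to 4933709 in the 8 oocytes. Genes were kept by edgeR's filterByExpr over the 8 strata, normalized by TMM and tested in edgeR 4.0.16 (limma 3.58.1, R 4.3.3) by the quasi-likelihood test with the stratum as a block, over 97 oocytes. The scripts were tested on simulated counts. DESeq2 1.42.0, RLE scaling, no filter, no replicate block, thinning to 100000 counts, all listed oocytes in 1 fit, removal of the mitochondrially encoded genes and leaving out oocytes in turn were alternatives. Summaries and drawings used Python 3.11.15 with scipy 1.17.1 and matplotlib 3.10.9.

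Named were, of the genes called with a symbol and on the same side of the peers' median in at least 7 oocytes, the 10 higher and 10 lower with the smallest adjusted p, in each oocyte the 3 higher and 3 lower with the largest log2 fold change that lay outside all peers and had at least 20 counts, the called members of 16 gene lists, and at most 2 IDs without a symbol in each direction. A lower gene of B259 that this rule names is not reported here. The 8 oocytes and the lists were chosen with earlier results of these data known. A gene with no count was given the floor of 3 counts for a fold, and intervals are exact 95% counting intervals.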

Additional observations from a re-analysis of the deposited data

Results flagged for a closer look

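Among 44 groups of 4 to 10 oocytes, 8 values lay far from the rest of their group by Dixon's test, which chance does for about 1 group in 20. The groups reuse the same oocytes and related measures, rho among them, and the oocytes were chosen beforehand. That rate is therefore no yardstick for these 8 values, which are a description. A279, together with its 3 peers, accounted for 4 of them: its rho of 0.670 with its own size group, its summed ATP synthase and cytochrome c oxidase level of 24151 CPM, its granulosa markers at 338.5 CPM and its theca, stroma and smooth muscle markers at 458.7 CPM. The last was also far from the other 7 oocytes. F240 stood apart from its peers by the 26.8% of counts in its 100 most abundant genes.

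The other 2 values belonged to a peer of F240, oocyte F343, whose ATP synthase and cytochrome c oxidase subunits summed to 9110 CPM and whose granulosa markers summed to 5322 CPM, of which CITED2 made up 5308.

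The difference between the 8 oocytes and their peers was not the same in both replicates at 678 genes by edgeR's quasi-likelihood test. CENPT, among the named genes, had a log2 difference 3.72 higher in replicate 1 than in replicate 2.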

How the results depend on the processing

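Of 784 alternative values, 0 fold changes of named genes turned in direction, but the split of the calls did in F108 with DESeq2 and in F240 with all listed oocytes in the fit (54% of 806 calls higher). Thinning every oocyte to 100000 counts left 5140 genes to test and 1436 shared calls (569 higher and 867 lower), and 1037 calls in A279, 829 in A416, 1832 in B259, 1 in F108, 142 in F240 and 517 in H60. DESeq2 called 60 genes in C431, all listed oocytes in the fit gave 2 there, and no filter on low counts gave 67 in F108. DESeq2 called 4503 shared genes, and in F108 6 higher and 33 lower, where edgeR called 32 and 4. Without the replicate block, 2955 shared genes were called, 49.6% of them higher in place of 33.8%, with 2484 in F240 and 1 in C101. Leaving out 1 of the 8 oocytes gave 2696 (without B259) to 4581 (without F108) shared calls, and leaving out 1 of the 3 peers of A279 gave 3589 to 3774. RLE scaling moved the median log2 fold change of all genes from -0.996 to -0.67 in A279, and the shared share of higher calls from 33.8 to 41.2%. Single genes that missed the threshold were GATM in F240 (adjusted p = 0.0551) and ENKUR in H60 (0.0637) with DESeq2, SLC22A15 in F240 without the filter (0.0502), and, after thinning, CKB, ATP11A and CHMP1A in F240 (0.101, 0.139 and 0.111) and CASTOR1 in H60 (0.0848). Over the 500 genes that vary most between size groups, rho with the own group was 0.375 in B259 to 0.717 in C101. Over those genes F108 was most like 60 to 69 µm (0.823) and next 70 to 79 µm (0.799). Depth limited C101, where 3 counts are 26.4 CPM.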
